A study of Homo sapiens with 6 samples.

Results

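HMOX1 and 9 genes that code for the transcription factors NRF2 and BACH1 or for their antioxidant targets were described in NB4 cells left without treatment or exposed to 10 µM maltonis for 24 h. The genes were HMOX1, NFE2L2, BACH1, NQO1, GCLM, GCLC, TXNRD1, SRXN1, SLC7A11 and OSGIN1, taken by symbol, 10 of the 23368 symbols in the deposited count tables. They had been chosen with the change between these groups known, so their levels and fold changes in this comparison are given as a description and without a p-value. NB4 cells are a patient-derived line of acute promyelocytic leukemia (APL) that carries the PML/RARα fusion, the only line used here, and maltonis is a synthetic hydroxypyrone made from maltol and diluted in water. Total RNA of both groups came from cells grown in RPMI medium with 10% fetal bovine serum, with 3 libraries per group.

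NRF2, the product of NFE2L2, is held in the cytosol and marked for destruction by KEAP1 until oxidants or electrophiles modify KEAP1. Stabilized NRF2 pairs with small MAF proteins and activates genes with an antioxidant response element, and BACH1 occupies the same elements as a repressor until heme binds it and releases it from DNA. HMOX1, the inducible heme oxygenase that opens the heme ring, is known to be strongly repressed by BACH1, while the other targets answer mainly to NRF2. In myeloid cells these genes balance the oxidants made by NADPH oxidase and myeloperoxidase.

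Depth ranged from 18492154 to 38205483 counts per library. A floor of 3 counts equals 0.0828 to 0.160 CPM (counts relative to the TMM-scaled library size, the unit of levels below), and covers counting error only. Of 13 APL blast markers, 11 were above 1 CPM in every library, MPO the highest, while KIT was below 1 CPM without treatment and ELANE had only 3, 6 and 2 counts there. Of 10 markers of other blood cells, 8 were below 1 CPM in every library and MS4A1, HBB and PF4 were among those at 0, the exceptions being CD3D and ITGA2B. The APL markers did not move together: 6 passed the test used below as lower (MPO, CD33, ANPEP, SPI1, CEBPA and CEBPE), 4 as higher (CTSG, ELANE, KIT and AZU1) and 3 in neither direction. Their summed level, 14790-17250 CPM without treatment and 9173-9781 CPM with maltonis, was mostly MPO, which went from 14610 to 7425 CPM on average, while CTSG went from 109.3 to 552.8 CPM and ELANE from 0.129 to 17.4 CPM. The sum of the other markers, 62.4-65.9 and 44.6-47.5 CPM, was nearly all from CD3D, which went down from 43.7 to 15.3 CPM, and ITGA2B, which went up from 19.4 to 30.0 CPM. The part of these markers in the values of the antioxidant genes was not tested. In bulk RNA, fewer cells of a type and less RNA per cell cannot be told apart.

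The promoters of GCLM and TXNRD1, which rose, and of GCLC and NQO1, which fell, are shown first. SRXN1 also rose, and its promoter is not printed. The antioxidant response element is a short sequence, and matches to its core were looked for in the promoters. RefSeq windows of GRCh38.p14, each covering 250 bases before a start site and 50 from it onward, were matched for 8 of the 10 genes, with 12 windows in all. HMOX1 and SLC7A11 were not matched. Capitals mark each match to the element's core, TGACNNNGC, on either strand, and the sequences run 5′ to 3′ on the strand of the gene and end with the first transcribed base. GCLM lies at chr1:93909430-93909680 on the minus strand, GCLC at chr6:53545101-53545351 on the minus strand, NQO1 at chr16:69726560-69726810 on the minus strand, and the upstream and downstream start sites of TXNRD1 at chr12:104215529-104215779 and chr12:104286782-104287032 on the plus strand.
GCLM: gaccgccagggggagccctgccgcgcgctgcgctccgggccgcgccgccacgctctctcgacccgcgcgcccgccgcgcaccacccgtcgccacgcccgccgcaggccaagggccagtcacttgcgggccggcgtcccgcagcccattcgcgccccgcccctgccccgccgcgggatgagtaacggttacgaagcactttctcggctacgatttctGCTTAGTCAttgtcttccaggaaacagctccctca
TXNRD1, upstream start site: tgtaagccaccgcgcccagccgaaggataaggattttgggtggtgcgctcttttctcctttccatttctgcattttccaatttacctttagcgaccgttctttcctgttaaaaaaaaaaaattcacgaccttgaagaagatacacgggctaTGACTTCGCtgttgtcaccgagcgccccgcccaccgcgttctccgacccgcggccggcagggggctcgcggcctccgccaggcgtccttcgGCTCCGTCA
TXNRD1, downstream start site: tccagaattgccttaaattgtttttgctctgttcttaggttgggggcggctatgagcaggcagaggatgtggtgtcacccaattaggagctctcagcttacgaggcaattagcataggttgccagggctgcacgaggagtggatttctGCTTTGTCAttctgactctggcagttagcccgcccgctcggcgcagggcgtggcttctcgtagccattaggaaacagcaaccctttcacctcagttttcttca
GCLC: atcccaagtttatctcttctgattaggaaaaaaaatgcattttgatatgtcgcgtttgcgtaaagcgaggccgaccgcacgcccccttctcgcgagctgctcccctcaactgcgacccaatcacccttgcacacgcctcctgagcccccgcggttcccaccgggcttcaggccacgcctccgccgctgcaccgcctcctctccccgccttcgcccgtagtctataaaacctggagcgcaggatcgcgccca
NQO1: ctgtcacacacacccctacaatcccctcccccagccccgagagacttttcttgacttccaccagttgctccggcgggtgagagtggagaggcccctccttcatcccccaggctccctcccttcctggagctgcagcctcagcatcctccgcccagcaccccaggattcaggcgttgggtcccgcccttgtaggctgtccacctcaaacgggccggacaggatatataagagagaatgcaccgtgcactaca

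The core TGACNNNGC was found in 3 of the 12 windows, those of GCLM and TXNRD1, beside 13.3% of all 35116 windows of the same length. In GCLM the match GCTTAGTCA, on the opposite strand, began 34 bases before the start site. TXNRD1 held TGACTTCGC 99 bases and GCTCCGTCA 8 bases before its upstream start site, and GCTTTGTCA 102 bases before the downstream one. The AP-1 element TGACTCA, whose letters can be the first part of an antioxidant response element, was found in 2 of the 12 windows, 1 of BACH1 and that of OSGIN1, beside 4.95% of all windows, and overlapped no core match there. The window of SRXN1, whose log2 fold change was 0.81, held no core match, and neither did those of GCLC and NQO1. Whether matches go with the direction of change was not tested. A match, or the lack of one, describes these letters in this window only.

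HMOX1 had 38, 86 and 85 counts in not treated replicates 1, 2 and 3 and 956, 1492 and 1291 counts in the maltonis-treated ones. Scaled by library, these were 2.02, 2.37 and 2.56 CPM without treatment and 49.4, 44.5 and 45.8 CPM with maltonis. All treated libraries lay far above all not treated ones, and the treated values were close to each other. The mean went from 2.32 ± 0.274 to 46.6 ± 2.52 CPM (SD, n = 3), which the fit gave as 4.30 on the log2 scale (standard error 0.103), or 19.7-fold. Among 13209 genes tested, HMOX1 stood at rank 89 from the top by log2 fold change. Of the 7252 genes with a mean level at or above that of HMOX1, itself included, 1 other gene had a log2 fold change as large. The difference was 4.56 on the log2 scale in replicate 1 and 4.16 in replicates 2 and 3, whose deposited names carry another code, of unstated meaning.

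**Figure D1:**
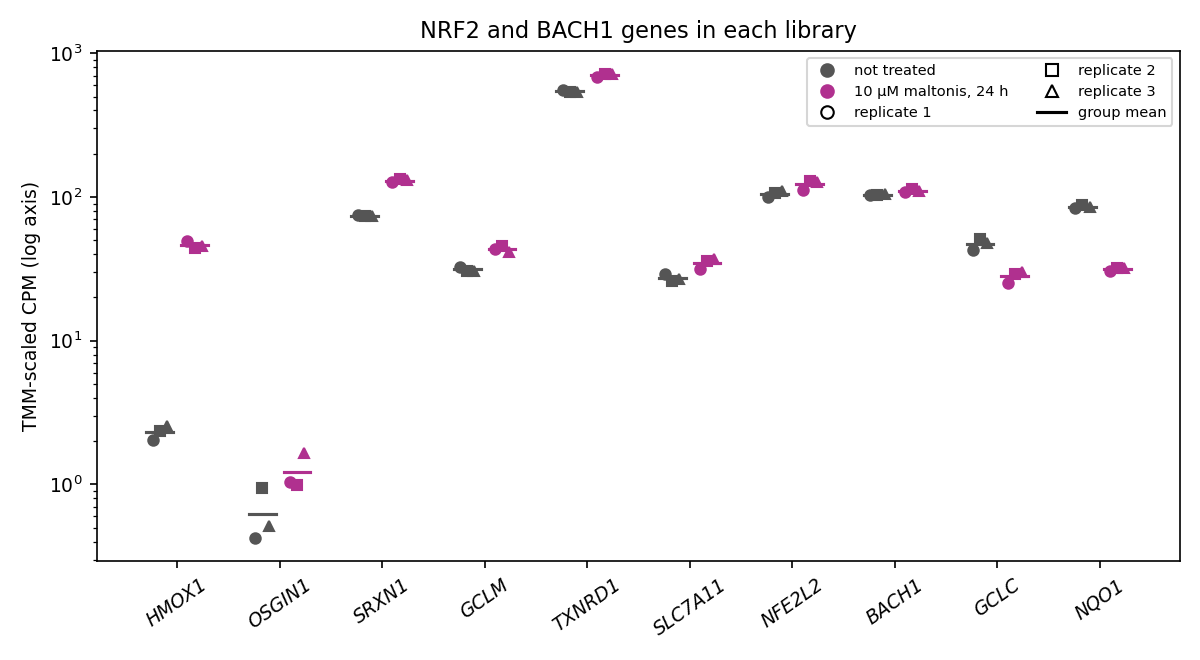
Level of the 10 genes in each library, in TMM-scaled CPM on a log axis, for 3 not treated (grey) and 3 maltonis-treated (purple) libraries, with the symbol giving the replicate and the bar the group mean. HMOX1 moves from 2.02-2.56 to 44.5-49.4 CPM, while NFE2L2 and BACH1 stay near 100 to 130 CPM and NQO1 and GCLC lie lower with maltonis.

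The genes of both upstream factors had small differences. NFE2L2, which codes for NRF2, had 100.2, 106.7 and 109.5 CPM in untreated cells versus 111.5, 128.9 and 127.5 CPM with maltonis. The groups did not overlap, but the lowest treated library was just above the highest not treated one. The fitted log2 difference was 0.22 (standard error 0.0730), which missed the threshold used throughout, a false discovery rate (FDR) of 0.01 in edgeR's quasi-likelihood test. BACH1 was at 102.8, 103.8 and 104.9 CPM in untreated cells versus 108.1, 113.5 and 109.3 CPM with maltonis, and the fitted log2 difference of 0.09 (standard error 0.0533) did not pass either. These are transcript levels, and the protein and its place in the cell, at which KEAP1 and heme act, were not measured here. An exon of BACH1 overlaps GRIK1 on the opposite strand in the annotation, but GRIK1 had at most 7 counts in any library.

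The genes of glutathione synthesis parted. GCLC, the catalytic subunit of glutamate-cysteine ligase, the rate-limiting enzyme of glutathione synthesis, was at 42.8, 51.2 and 47.5 CPM in untreated cells versus 25.0, 29.2 and 30.2 CPM with maltonis. GCLM, the modifier subunit that raises the activity of the enzyme, was at 32.8, 30.7 and 30.7 CPM in untreated cells versus 43.5, 45.3 and 41.8 CPM with maltonis. Each gene's groups were apart, in opposite directions. The log2 fold changes were −0.74 (standard error 0.0972) for GCLC and 0.47 (standard error 0.0681) for GCLM. SLC7A11, the cystine carrier of system xc- that brings in the cysteine for glutathione, was at 29.1, 26.1 and 26.8 CPM in untreated cells versus 31.7, 35.8 and 37.1 CPM with maltonis. The fitted log2 difference was 0.36 (standard error 0.0836), 0.12 in replicate 1 and 0.46 in replicates 2 and 3. It no longer passed an FDR of 0.01 in 4 of the 6 fits that left out 1 library, at 0.318 without not treated replicate 2, 0.335 without not treated replicate 3, 0.314 without maltonis replicate 2 and 0.285 without maltonis replicate 3.

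Among the targets that act on proteins and quinones, SRXN1 rose and NQO1 fell. SRXN1, the sulfiredoxin that reduces overoxidized peroxiredoxins, was at 75.3, 73.5 and 73.7 CPM in untreated cells versus 126.4, 132.9 and 131.2 CPM with maltonis, and the fitted log2 difference was 0.81 (standard error 0.0543). TXNRD1, the cytosolic thioredoxin reductase, was at 557.7, 541.7 and 537.6 CPM in untreated cells versus 680.4, 714.6 and 718.4 CPM with maltonis, and the fitted log2 difference was 0.37 (standard error 0.0536). Both genes varied little within a group, by a coefficient of variation between 1.34% and 2.97%. NQO1, a quinone reductase often used as an indicator of NRF2 activity, went the other way, from 83.8, 88.7 and 84.7 CPM to 30.4, 32.1 and 31.98 CPM. The fitted log2 difference was −1.44 (standard error 0.0620), the lowest of the 10 genes, and rank 1188 from the bottom among all genes tested. OSGIN1, an oxidative stress-induced growth inhibitor, was near the floor, with 8, 34 and 17 counts without treatment and 20, 33 and 47 with maltonis. In CPM these were 0.426, 0.938 and 0.513 against 1.03, 0.984 and 1.67, so that the closest libraries of the 2 groups were almost level, and its log2 fold change of 0.90 (standard error 0.341) did not pass an FDR of 0.01.

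Counted together, 5 of the 10 genes were higher (HMOX1, SRXN1, GCLM, TXNRD1 and SLC7A11) and 2 lower (NQO1 and GCLC) at an FDR under 0.01, beside 31.9% of all genes tested higher and 32.1% lower, and 64.0% in either direction. The groups did not overlap for any of the 10 genes, beside 76.6% of all genes tested. A change beyond 2.5-fold was passed only by HMOX1 and NQO1, beside 9.96% of genes above and 10.4% below. The median log2 fold change of the 10 genes was 0.36, and that of all genes tested 0.01. Since the genes were chosen on this comparison, nothing is read from these counts.

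**Figure D2:**
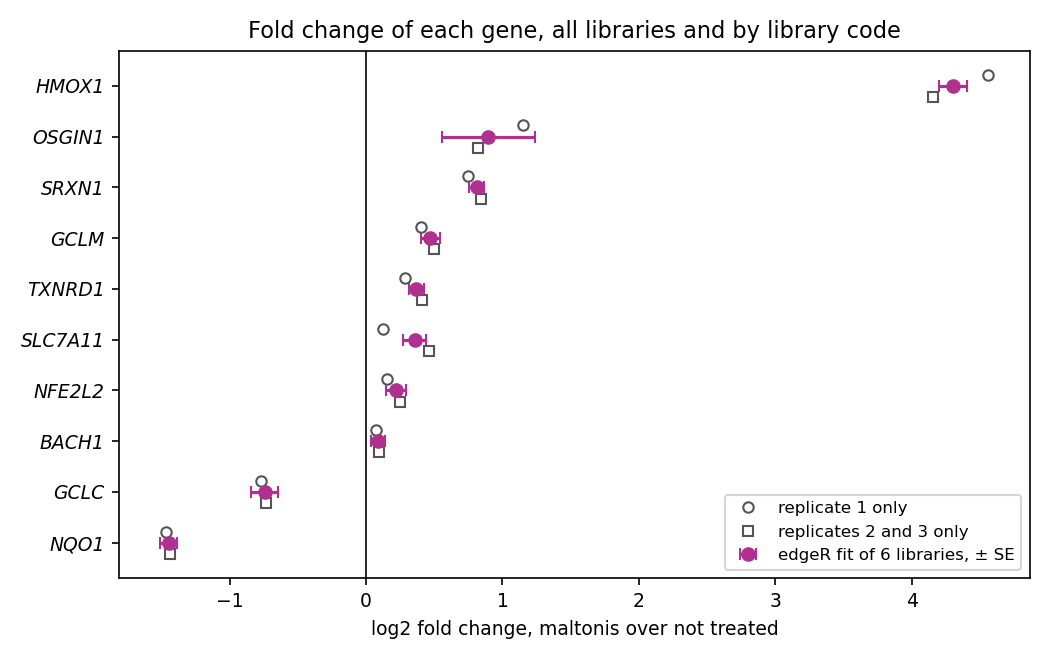
Log2 fold change of each gene (x axis, maltonis over not treated), from the fit of all 6 libraries with its standard error (filled circles), and the log2 difference in replicate 1 alone (open circles) and in replicates 2 and 3 (open squares). All 10 genes keep their direction in both sets of libraries, and SLC7A11 differs most between them relative to its size, at 0.12 and 0.46.

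**Figure D3:**
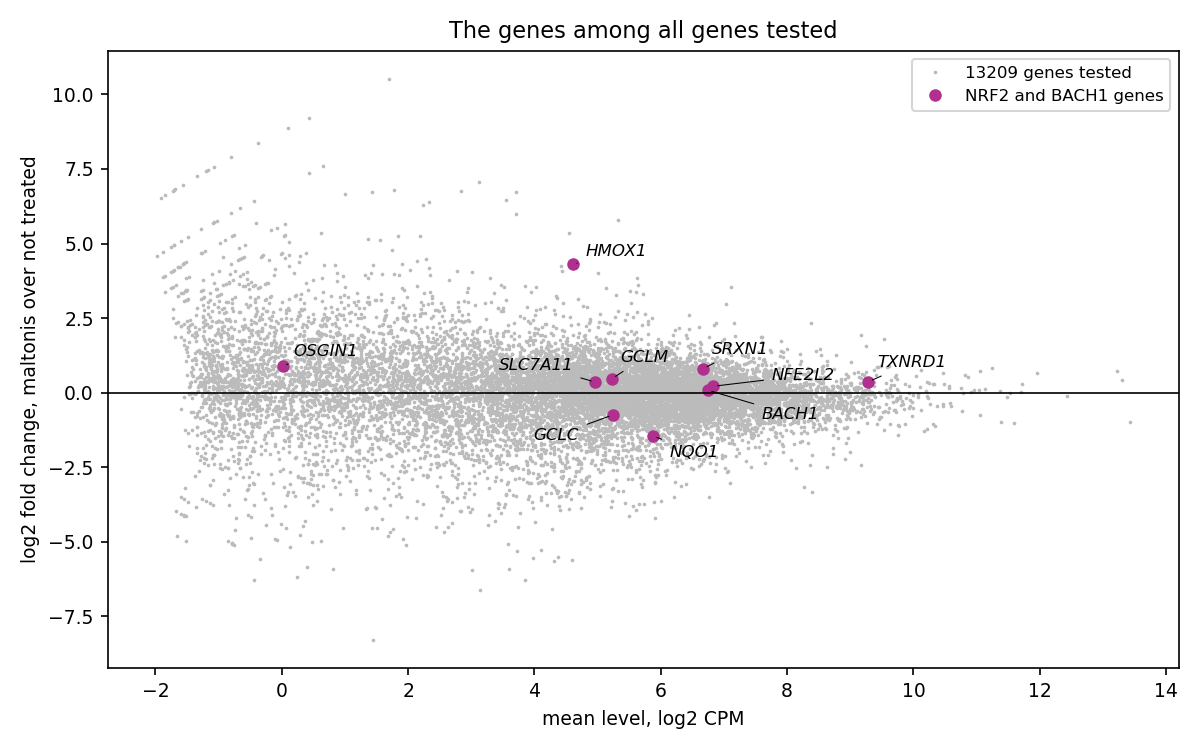
Mean level of each of the 13209 genes tested (x axis, log2 CPM) against its log2 fold change (y axis, maltonis over not treated), with the 10 genes in purple. HMOX1, at 4.30, lies above nearly all genes of its level or higher, whereas NFE2L2 (0.22) and BACH1 (0.09) lie within the main body of points.

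Compared per length, as RPKM (CPM per kilobase of exon), the order of the 10 transcripts without treatment ran from TXNRD1 at 118.4 ± 2.30, NFE2L2 at 32.4 ± 1.47, NQO1 at 29.45 ± 0.886 and SRXN1 at 27.5 ± 0.368 to BACH1 at 14.99 ± 0.151 RPKM (SD, n = 3). GCLC at 12.4 ± 1.11, GCLM at 6.41 ± 0.247, SLC7A11 at 2.83 ± 0.161, HMOX1 at 1.27 ± 0.150 and OSGIN1 at 0.323 ± 0.141 RPKM followed. With maltonis, HMOX1 stood at rank 4, at 25.6 ± 1.38 RPKM, behind TXNRD1 at 152.9 ± 4.54, SRXN1 at 48.2 ± 1.26 and NFE2L2 at 37.7 ± 2.97 RPKM. NQO1, at 10.8 ± 0.333 RPKM, fell below BACH1, and GCLM, at 8.88 ± 0.366, passed GCLC, at 7.38 ± 0.718 RPKM. No neighbours in either order had overlapping libraries. The order depends on the length given to a gene: with all annotated exons in place of those of RefSeq-linked transcripts, NFE2L2 without treatment was at 17.6 RPKM and at rank 4, after SRXN1 and NQO1, GCLM (5.79 RPKM) passed GCLC (5.46 RPKM) already without treatment, and GCLC with maltonis (3.26 RPKM) fell behind SLC7A11.

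The ratios within a library compare partners. HMOX1 over HMOX2, its constitutive counterpart, was 0.0341, 0.0440 and 0.0485 per length without treatment and 1.015, 0.994 and 0.995 with maltonis. By these lengths, transcripts of the inducible enzyme went from a small share of the constitutive one's level to about the same level. This held in every treated library. The size of a ratio depends on the lengths used. With all annotated exons HMOX1 with maltonis was at 19.4 RPKM in place of 25.6, and no such value was computed for HMOX2. GCLM over GCLC went from 0.522 ± 0.0673 to 1.21 ± 0.138 (SD, n = 3), and the libraries of the groups did not overlap. With all annotated exons GCLM was above GCLC in both groups. NFE2L2 over KEAP1 was 0.241 ± 0.0258 and 0.248 ± 0.0317, with overlapping libraries. BACH1 over NFE2L2 was 0.463 ± 0.0168 and 0.424 ± 0.0278, also with overlap.

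**Figure D4:**
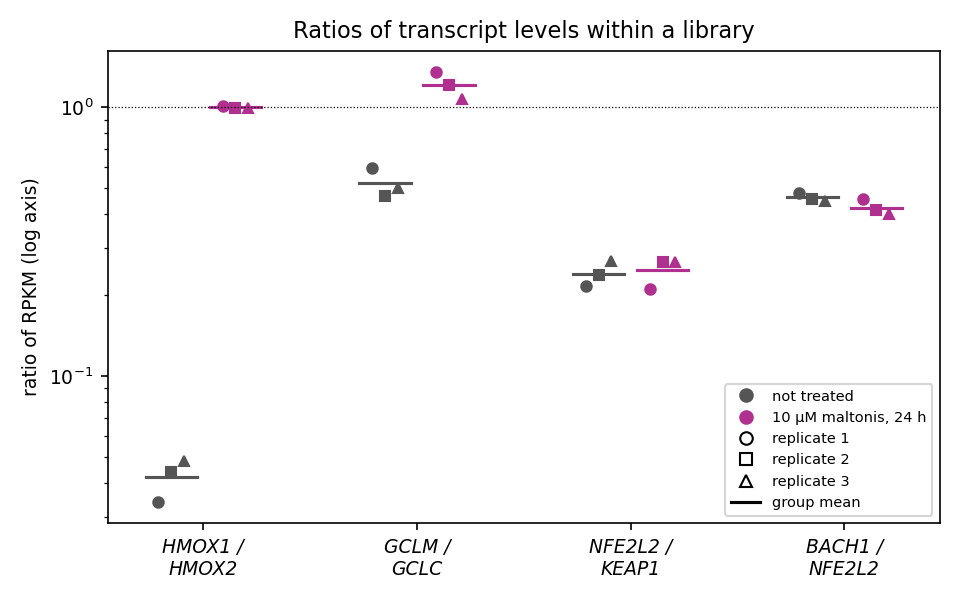
Ratio of RPKM (y axis, log scale) of 4 pairs of genes in each of 3 not treated (grey) and 3 maltonis-treated (purple) libraries, with bars at the group means and a dotted line at equal levels. HMOX1 over HMOX2 goes from 0.0341-0.0485 to 0.994-1.015 and GCLM over GCLC from 0.466-0.597 to 1.075-1.35, while both regulator ratios overlap between groups. Where a ratio lies relative to the dotted line depends on the gene lengths used.

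The pathway around these genes was described with 8 lists that hold 167 further genes, of which 144 passed the filter on low counts. At an FDR under 0.01, 38 were higher (26.4%) and 58 lower (40.3%), beside 31.9% and 32.1% of all genes. Their median log2 fold change was −0.20, beside 0.01 for all genes. The lists too were chosen with earlier results of these data known, so nothing is read from these shares or medians. The 23 genes that did not pass the filter were not tested. A gene named below as rising or falling passed that threshold in the edgeR fit.

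Among the partners and regulators of NRF2 and BACH1, 7 of 19 tested genes were higher and 6 lower, with a median of −0.05. The small MAF genes, whose proteins pair with NRF2 and BACH1 on DNA, moved apart: MAFG went up from 113.6 ± 2.66 to 182.0 ± 4.77 CPM (SD, n = 3), or 0.68 on the log2 scale, and MAFF fell from 7.40 ± 0.842 to 2.68 ± 0.166 CPM (SD, n = 3), a change of −1.46. MAFK was at −0.15 and did not pass. KEAP1, the adaptor that marks NRF2 for destruction, was at 427.3 ± 27.1 and 483.0 ± 26.4 CPM (SD, n = 3), and its difference of 0.18 on the log2 scale did not pass. It did pass with the library code as a covariate (0.18), with total counts (0.30) and with upper quartile scaling (0.26), and was 0.111 without maltonis replicate 1. SQSTM1, a selective autophagy receptor that binds KEAP1, rose by 0.54, and SYVN1, an endoplasmic reticulum ubiquitin ligase, by 0.59, a call lost in 4 of the 6 fits that left out 1 library. Those were the fits without not treated replicate 1 (0.528) or 2 (0.558) and without maltonis replicate 1 (0.375) or 3 (0.648). NFE2L3, a relative of NFE2L2, fell by 1.38 on the log2 scale. BACH2, the relative of BACH1, had too few counts to be tested.

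In the list on heme, 2 of 21 tested genes were higher and 9 lower, with a median of −0.25. Both genes of biliverdin reductases, which act on the product of heme oxygenase, changed, in opposite directions. BLVRB was at 3.14, 2.98 and 2.17 CPM in untreated cells versus 8.16, 8.98 and 6.67 CPM with maltonis, and the fitted log2 difference was 1.54 (standard error 0.174). BLVRA was at 2.02, 2.48 and 2.11 CPM in untreated cells versus 0.310, 0.328 and 0.923 CPM with maltonis, where 6, 11 and 26 counts were left, a change of −2.06 (standard error 0.338). Some genes late in heme synthesis fell. CPOX, coproporphyrinogen oxidase, went from 60.3 ± 3.59 to 7.30 ± 0.229 CPM (SD, n = 3), or −3.05 on the log2 scale. FECH, the ferrochelatase that inserts iron, went from 21.0 ± 1.60 to 3.69 ± 0.513 CPM (SD, n = 3), a change of −2.49. PPOX, the oxidase between them, rose by 0.98. HMOX2 was at 84.4 ± 5.27 and 70.9 ± 3.0 CPM (SD, n = 3), or −0.25 on the log2 scale (edgeR quasi-likelihood, adjusted p = 0.00872). That call was lost in 7 of 16 other settings, among them total-count scaling (−0.13, edgeR adjusted p = 0.122) and the fits without not treated replicate 1 (−0.212) or 2 (−0.277) or maltonis replicate 2 (−0.248) or 3 (−0.27).

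The glutathione list had 5 higher and 12 lower genes of 27 tested, with a median of −0.22. CHAC1, which degrades glutathione, went up from 0.504 ± 0.0863 to 4.16 ± 0.603 CPM (SD, n = 3), or 3.06 on the log2 scale. GSTO2, an omega-class glutathione transferase, rose by 1.33, from 0.205 ± 0.0211 to 0.530 ± 0.0987 CPM (SD, n = 3), close to the floor, and lost its call in 9 of 15 other settings. Among these were the fits without not treated replicate 1 (1.339), 2 (1.404) or 3 (1.23) and without maltonis replicate 1 (1.262) or 3 (1.177). OPLAH, the 5-oxoprolinase of the glutathione cycle, fell by 3.25 on the log2 scale, and GGT7 by 2.25. Few counts were left with maltonis, 11, 14 and 8 for OPLAH and 13, 14 and 21 for GGT7. The difference of GGT7 was −1.46 in replicate 1 and −2.36 in replicates 2 and 3. SLC3A2, the heavy chain that SLC7A11 needs to reach the membrane, went from 376.1 ± 20.1 to 190.0 ± 4.25 CPM (SD, n = 3), or −0.98 on the log2 scale. GSR, glutathione reductase, fell by 0.39, while GSS, glutathione synthetase, at −0.22, did not pass here but did with the library code as a covariate (−0.22).

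In the thioredoxin and peroxiredoxin list, 5 genes were higher and 9 lower of 24 tested, with a median of −0.21. PRDX2, a cytosolic peroxiredoxin and substrate of sulfiredoxin, went up from 116.0 ± 10.2 to 260.6 ± 18.8 CPM (SD, n = 3), or 1.17 on the log2 scale, and SESN3, a sestrin, rose by 1.07. TXN, the thioredoxin reduced by TXNRD1, went from 166.3 ± 22.1 to 105.8 ± 15.1 CPM (SD, n = 3), a change of −0.65. TXNRD2, the mitochondrial thioredoxin reductase, went from 38.1 ± 3.26 to 7.65 ± 0.578 CPM (SD, n = 3), or −2.31 on the log2 scale, against 0.37 for the cytosolic TXNRD1. MSRA, a methionine sulfoxide reductase, fell by 1.39.

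**Figure D5:**
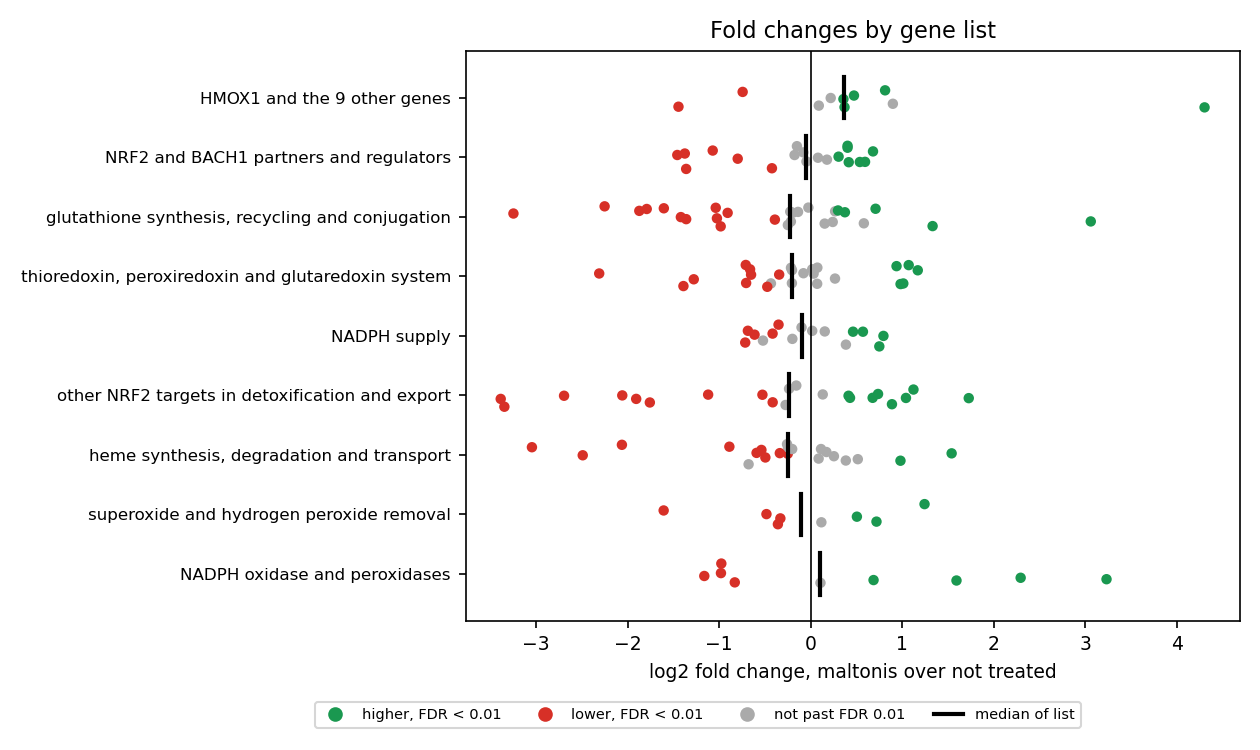
Log2 fold change (x axis, maltonis over not treated) of the 10 genes and of the tested genes of 8 pathway lists, colored by whether they passed an FDR of 0.01, with a bar at the median of each list. Medians of the 8 pathway lists lie between −0.25 and 0.11, and that of the 10 genes is 0.36. Every list holds genes that passed in both directions.

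Of further NRF2 targets in detoxification, export and iron storage, 8 of 21 tested were higher and 9 lower, with a median of −0.24. ABHD4, a lipid hydrolase, rose by 1.73 from a low level of 0.664 ± 0.0496 CPM (SD, n = 3), and PIR, pirin, by 1.12. PTGR1, prostaglandin reductase, fell from 3.87 ± 0.426 to 0.361 ± 0.0541 CPM (SD, n = 3), or −3.39 on the log2 scale, and ABCC4, an efflux pump, from 37.1 ± 0.185 to 3.72 ± 0.807 CPM (SD, n = 3), a change of −3.35. FTL, the ferritin light chain, rose by 0.43, a call lost without not treated replicate 2 (0.398), while FTH1, the heavy chain, at −0.16, did not pass. The difference of FTH1 was 0.43 in replicate 1 and −0.39 in replicates 2 and 3, and its groups overlapped. Without not treated replicate 1 the log2 fold change of FTH1 was −0.36 (edgeR quasi-likelihood, adjusted p = 0.00278), and without not treated replicate 2 it was 0.018. Both ferritin genes have processed pseudogenes, so their counts are uncertain.

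The lists on NADPH supply and on removal of superoxide and hydrogen peroxide were divided. For NADPH supply, 4 of 15 genes were higher, led by PGLS, of the pentose phosphate pathway, at 0.79, and IDH1, an NADPH-making isocitrate dehydrogenase, at 0.75. The 5 lower genes were led by RPE and RPIA, of the non-oxidative branch, at −0.72 and −0.69, and the largest change was under 1 in size. The call of RPIA was lost without not treated replicate 2 (−0.598) or maltonis replicate 1 (−0.62). For superoxide and peroxide, 3 of 8 genes were higher, among them AIFM2, a ferroptosis suppressor that reduces coenzyme Q, at 1.24, and OXR1 at 0.72. The 4 lower genes included PON2 at −1.61 and CAT, catalase, at −0.48.

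The last list holds the enzymes that make oxidants in myeloid cells. NCF1, a cytosolic subunit of the phagocyte NADPH oxidase, went from 0.991 ± 0.317 to 9.42 ± 0.895 CPM (SD, n = 3), a change of 3.23 on the log2 scale, but has near-identical pseudogenes that leave its counts uncertain. LPO, lactoperoxidase, and RAC2, a GTPase of the oxidase, fell by 1.16 and 0.98 on the log2 scale. Of 9 tested genes in this list, 4 passed as higher and 4 as lower, with a median of 0.11.

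Closest to HMOX1 over the 6 libraries, by Euclidean distance of centered log2 CPM with a prior count of 2, were AMICA1 (distance 0.192), FBXL19-AS1 (0.364), LOC100289211 (0.394), CACNA2D2 (0.435) and EPSTI1 (0.479). AMICA1 went from 2.12 ± 0.219 to 40.6 ± 0.916 CPM and FBXL19-AS1 from 2.38 ± 0.171 to 40.9 ± 1.35 CPM (SD, n = 3), levels much like those of HMOX1. FBXL19-AS1 is an antisense gene, and since the strand setting of the counting is not stated, its reads may be shared with its partner. LOC100289211 had no counts without treatment and 34, 41 and 42 with maltonis, and CACNA2D2 had 1, 3 and 2 against 69, 98 and 72. Their fitted log2 fold changes, 8.37 and 5.36, were larger than that of HMOX1. With few or no counts without treatment, the size of both is uncertain. EPSTI1 went from 0.254 ± 0.0351 to 5.09 ± 0.492 CPM (SD, n = 3), with a fitted log2 fold change of 4.27. For LOC100289211, CACNA2D2 and EPSTI1, all low without treatment, the distance depends on the prior count.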

How the data were processed

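RNA-seq of 3 not treated and 3 maltonis-treated NB4 libraries (stranded total RNA kit) was used. The authors deposited 1 table of whole-number HTSeq counts per library, without normalization. Their processing notes name TopHat, Bowtie2, HTSeq and the build hg19, while the annotation, versions and strand setting are not given in the sources used here, so antisense and overlapping genes are uncertain.

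The tests used edgeR 4.0.16 in R 4.3.3, with TMM scaling, filterByExpr and a quasi-likelihood fit on the 6 libraries with no covariate. P-values were adjusted by Benjamini-Hochberg over 13209 genes. The standard error is the log2 fold change divided by the root of the F statistic. Genes were called at an FDR under 0.01. DESeq2 1.42.0 was an alternative test. RPKM used merged exons of RefSeq-linked transcripts of GENCODE 29, chosen after seeing the files because the counted symbols are RefSeq-like, and all exons were an alternative added at the same stage. MSRB1 was counted under an older symbol. The edgeR test was tested on simulated data in which 200 genes were changed. In these data 64.0% of genes were called, so the simulation does not test the scaling under such wide change. The scaled depth sets the precision of low genes, with 3 counts as the floor.

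The 10 genes and the lists were chosen with earlier results of these data known. Genes named from the 8 lists are fixed partners (HMOX2, BLVRA, BLVRB, KEAP1, MAFF, MAFG, MAFK, BACH2, SLC3A2, GSS, GSR, TXN, SQSTM1, FTH1 and FTL) and up to 2 called genes with the largest change in each direction, and the 5 genes nearest to HMOX1 were named by distance. The marker genes and GRIK1 were named as checks. Some genes that these rules would name are not reported here. The study describes the libraries as biological replicates, and the labels do not name separate cultures. Replicate libraries differed by more than sampling noise (chi-square per degree of freedom from 4.15 to 33.1).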

Additional observations from a re-analysis of the deposited data

How the results depend on the processing

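Over 16 alternatives of scaling, test, filter, covariate and libraries, none of the 10 genes changed direction, and HMOX1 stayed between 4.19 and 4.42 and NQO1 between −1.48 and −1.33 on the log2 scale. NFE2L2, not called, passed an FDR of 0.01 with total counts (0.34), upper quartile scaling (0.30), the replicate block (0.22), the library code as covariate (0.22) and the second library code only (0.24), and BACH1 passed with total counts (0.21). Total counts and the upper quartile also moved the median of all genes, to 0.13 and 0.10 from 0.01. SLC7A11 was no longer called without not treated replicate 2 or 3 or maltonis replicate 2 or 3, with log2 fold changes from 0.28 to 0.40 over the 6 fits that left out 1 library. The range over those fits was 0.16 to 0.26 for NFE2L2, 0.043 (without maltonis replicate 2) to 0.087 for BACH1 and 0.58 to 1.35 for OSGIN1, whose few counts limit its precision. FTH1 turned to 0.018 without not treated replicate 2 and was −0.363 without not treated replicate 1. The cause of these changes was not tested. With a change beyond 2.5-fold added to the FDR, 1 of the 10 genes was higher and 1 lower, 7 pathway genes were higher and 22 lower, and 1316 of all genes were higher and 1369 lower.

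Of 39 called pathway genes named, 34 were called under every alternative in which they were tested, and SYVN1, GSTO2, RPIA, FTL and HMOX2 were not. Of those not called, KEAP1 passed with the library code as covariate, total counts and upper quartile scaling, GSS with the library code and the replicate block, and FTH1 with the second library code only and without not treated replicate 1. The replicate numbers were also tried as a block. Same-numbered libraries deviated from their group means with correlations of 0.301, 0.0852 and 0.161, not every library correlated best with its own number, and the labels do not tie the numbers to a shared culture. In the paired fit 6 of the 10 genes were higher and 2 lower, as were 41 and 67 pathway genes and 4602 and 4620 of all genes, and GSTO2 lost its call while GSS gained one. The longest transcript as gene length left the order of the 10 genes as it was.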
